A study of Physcomitrium patens with 10 samples.

Results

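In the moss Physcomitrium patens, severely dehydrated (SDH) leafy shoots, or gametophores, were compared with hydrated (HD) ones by their mature miRNAs. The comparison covered 215 of the 280 deposited miRNA names, taken as those at 3 RPM (reads per 1000000) or more in the higher group, and they belonged to 80 of 108 family numbers. By title, HD and SDH had 2 samples each out of 10 samples in 5 groups. Each group is represented by 1 value per miRNA in which the authors had already combined the replicates. No replicate error, interval or p-value could therefore be attached to a difference, and library depth is unknown. Plants of both groups grew on BCD medium. The sources used here do not give strain, age, drying time or water content. The treatment field of both SDH samples names moderate rather than severe dehydration, so the degree of drying rests on the titles and on the column names of the tables, while the field and the titles say the same for both HD samples.

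In plants a miRNA is cut from the stem of a folded precursor, the hairpin, as a short duplex. One arm of the duplex usually enters an Argonaute protein and guides it to complementary messenger RNAs, while the other arm, the passenger or star strand, is mostly degraded. Names ending in 5p and 3p mark the arm, and letters mark members of a family that can differ by a few bases or not at all. Gametophores of this moss withstand strong water loss, and abscisic acid takes part in that response. Several of its miRNA families are shared with flowering plants and regulate developmental transcription factors, whereas many others are known mainly from mosses.

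The measure was log2((SDH + 1)/(HD + 1)) on levels in RPM, and higher and lower refer to names past 2-fold on it. Of 215 names 40 were higher, 18.6% of those compared, and 29 were lower, 13.5%. Their median log2 difference was 0.02, with quartiles at -0.53 and 0.57, and 115 names lay within 1.5-fold of no difference. Plain ratios of RPM are given as folds, and none is given where a level lay under 1 RPM. Where a pair of levels follows a name, the first is that of HD and the second that of SDH, unless another state is named.

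**Figure D1:**
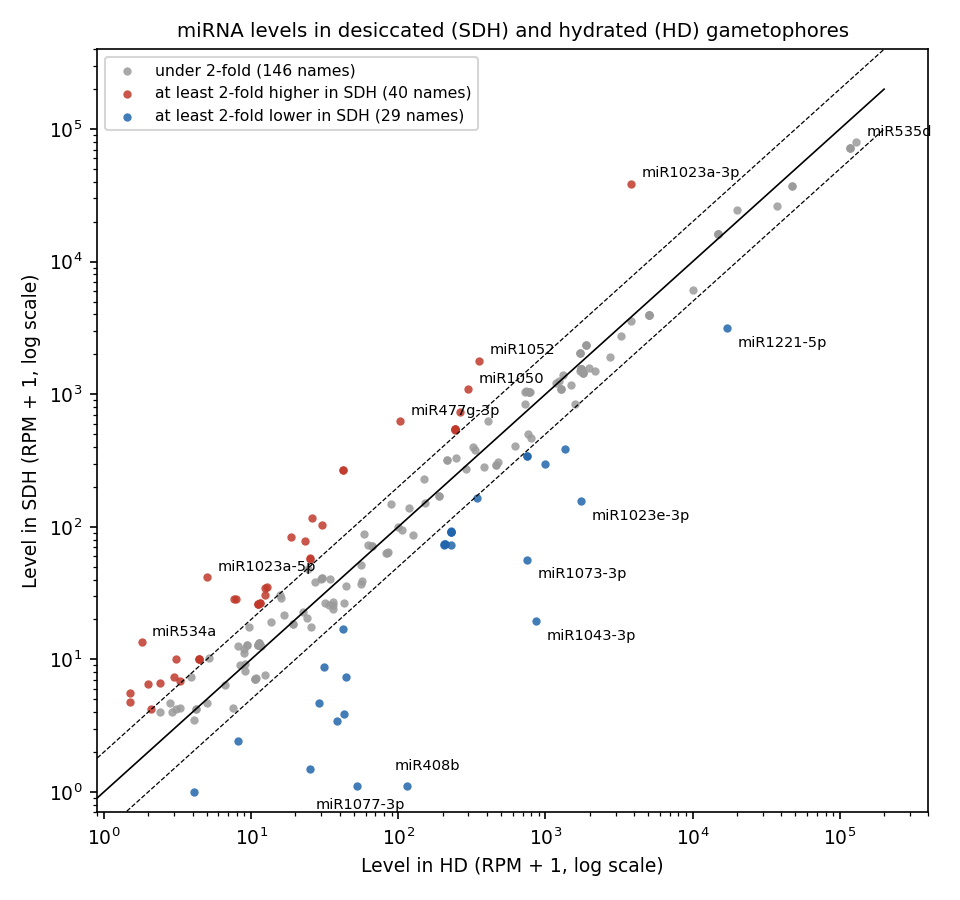
Level of each of 215 miRNA names in HD (x axis) and SDH (y axis), both as RPM + 1 on log scales, with 1 pooled value per group. The solid line marks equal levels and the dashed lines 2-fold, and miR1023a-3p at 3805 and 38776 RPM stands apart above the lines, while miR1221-5p at 17068 and 3138 RPM stands apart below them.

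The summed level of all names was 831487 RPM in HD and 629248 RPM in SDH, lower by 202239 RPM in SDH. The miR535 family, which is related in sequence to miR156, was lower by 186870 RPM, with sums of 481066 and 294196 RPM. Its log2 difference of -0.71 did not pass 2-fold. Without miR535 the sums were 350420 and 335052 RPM. The sums of miR156 and miR1221 were lower in SDH by 30805 and 14084 RPM. On the other side miR1023 was higher by 33459 RPM, from 0.71% of the summed level in HD to 6.26% in SDH, and miR536 by 5108 RPM. Counting near-identical copies once, the sum was lower by 99987 RPM, with 95633 RPM of that in miR535. On that count miR1023 stood at 5928 of 451020 RPM in HD and at 39387.5 of 351033 RPM in SDH, so its percentages above depend on the copies. These sums bear on scale. If both groups were set to equal totals, the median log2 difference would shift by 0.38, and 54 names would be higher and 21 lower, so that 72.0% of the names past 2-fold would be higher in place of 58.0%.

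The names of miR535 and miR156, the most abundant in HD, stayed under 2-fold. The 4 miR535 names led both states, with miR535d at 129549 RPM in HD and 79535 RPM in SDH. miR156c, of the family that restrains SPL transcription factors, was at 47237 and 37438 RPM, a log2 difference of -0.34. miR1214 was at 20106 and 24344 RPM. Of the 52 names with a mean of HD and SDH of 1000 RPM or more, 49 stayed under 2-fold, and the exceptions were miR1023a-3p, miR1052 and miR1221-5p. Names past 2-fold were more frequent under 1000 RPM. Of 54 names with a mean from 100 to 1000 RPM, 9 were higher and 17 lower. Of 71 names from 10 to 100 RPM, 17 were higher and 9 lower, and of 38 names under 10 RPM 12 were higher and 2 lower. By count of names, the excess of higher over lower ones thus lay under a mean of 100 RPM. With near-identical copies counted once, the names from 10 to 100 RPM gave 10 higher and 9 lower values. A name under 3 RPM in 1 group was compared only through the other, as miR534a was with 0.8 and 12.5 RPM. With a minimum of 10 RPM 29 names were higher and 27 lower, so the excess depends on the minimum.

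Regulators of developmental transcription factors mostly lay under 2-fold, as did 146 of all 215 compared names. Many of them, such as the miR156 and miR166 names, were among the 52 at a mean of 1000 RPM or more, of which 49 stayed under 2-fold. The list held 36 compared names of miR156, miR166, miR171, miR319, miR529, miR534 and miR538. Of these 36 names 32 lay within 1.5-fold, 1 was higher and 1 was lower, and their median log2 difference was -0.18. The higher and the lower name are 2.78% of the list each, against 18.6% and 13.5% of all compared names. With near-identical copies counted once the 36 names amount to 18 values, and the 13 miR166 names among them to 3. The higher one, miR534a, which in this moss targets the BLADE-ON-PETIOLE regulators, stood at 0.8 RPM in HD and at 12.5 RPM in SDH. The lower one was miR529g, at 41.3 and 15.8 RPM, 2.61-fold lower, though at equal totals its log2 difference of -0.95 would stay under 2-fold, as it would with a pseudocount of 10 RPM. Its relatives miR529a, miR529b and miR529c, which like miR156 target SPL genes, lay at 1704 to 1723 RPM in HD and 2032 to 2042 RPM in SDH. All 13 miR166 names, regulators of HD-ZIP III genes, lay between -0.24 and -0.18 on the log2 scale. The summed levels of miR156 and miR166, with log2 differences of -0.38 and -0.20, would turn to 0.02 and 0.20 at equal totals. miR171a, whose family targets GRAS-domain regulators, was at 18.3 and 17.6 RPM. The 3 miR538 names, directed at MADS-box genes, had a log2 difference of 0.32 each.

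Of 16 auxin-related names none was higher, against 18.6% of all compared names, and 2 were lower, 12.5% against 13.5%. Of the 16 names 12 lay within 1.5-fold, and their median log2 difference was 0.01. With near-identical copies counted once these names amount to 12 values. Both lower names came from 1 hairpin of miR390, the family that triggers small interfering RNAs from TAS3 transcripts. miR390c had 985.5 RPM in HD and 294 RPM in SDH, 3.35-fold lower. Its star strand was at 30.1 and 7.7 RPM, 3.91-fold lower. The other members did not follow, with miR390a at 1232 and 1253 RPM and miR390b at 1171 and 1217 RPM. The 8 miR160 names at 3 RPM or more, regulators of auxin response factors, ranged from -0.17 to 0.97 on the log2 scale. The uppermost was miR160c at 4.2 and 9.2 RPM, just short of 2-fold. The 4 miR1219 names, with the same class of targets in moss, lay between -0.72 and -0.58.

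The family of miR408b acts on messenger RNAs of copper proteins such as plantacyanin. miR408b itself had 114 RPM in HD and 0.1 RPM in SDH. It was the sole name at 3 RPM or more in the copper and nutrient list, as miR408 without a letter and miR395 were listed at 0 in both groups. Together with the 7 miR319 names it made up the list of families linked to stress in flowering plants. In this list 1 of 8 names was lower, 12.5% against 13.5% of all compared names, with a median log2 difference of -0.43. The 7 miR319 names ranged from -0.72 to -0.38, and the most abundant, miR319d.2*, was at 10045 and 6112 RPM. None of the 3 names linked to the small RNA machinery passed 2-fold, with a median of 0.51. Among them miR904a, which targets AGO1 in moss, was at 740 and 1055.5 RPM, and miR1047-3p, from a hairpin within the DCL1 gene, was at 8.0 and 10.1 RPM.

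Across the conserved land-plant families together, 9 of 65 names were higher and 4 lower, and 44 lay within 1.5-fold. Among the 150 names outside them 31 were higher and 25 lower, and 71 lay within 1.5-fold. With near-identical copies counted once, 7 of 40 conserved values were higher and 4 lower, against 23 and 18 of 111 values outside. All 9 higher conserved names were of miR477, the only family of 3 or more compared names whose summed level was higher with all but 1 name past 2-fold. Its sum stood at 1775 RPM in HD and at 4509 RPM in SDH, with a log2 difference of 1.34. Counting near-identical copies once, 7 of 8 miR477 values were higher, as miR477b, miR477c and miR477e formed 1 set. miR477a-5p carried nearly the same values as that set, and miR477f as miR477g-5p, so these names are not separate observations. The miR477 names formed groups by size of the difference. miR477a-5p, miR477b, miR477c and miR477e stood at 243 to 244 RPM in HD and at 539 to 545 RPM in SDH, 2.21-fold to 2.24-fold higher. miR477d was 2.77-fold higher, at 263 and 727.5 RPM, and miR477h 3.50-fold, at 22.1 and 77.3 RPM. miR477f and both arms of miR477g formed the upper end, with miR477g-3p at 102 and 626 RPM. The exception was miR477a-3p, the most abundant name of the family in HD, at 333 and 375 RPM.

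**Figure D2:**
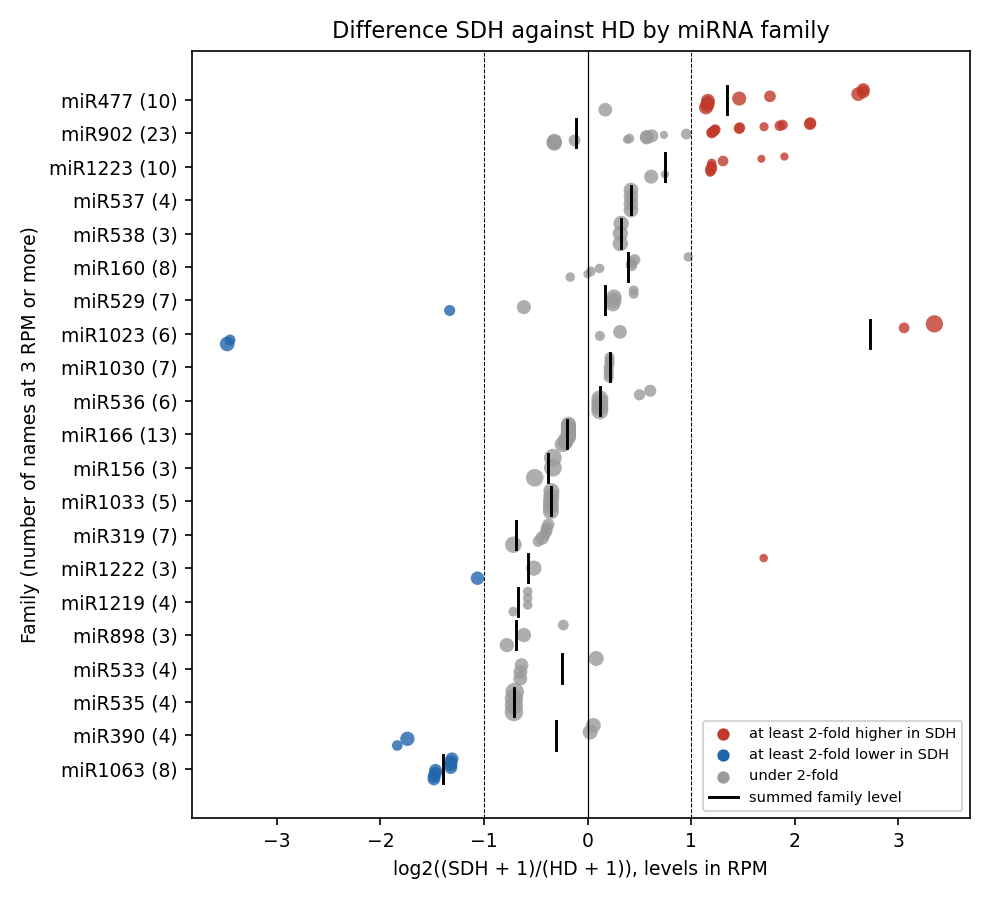
log2((SDH + 1)/(HD + 1)) of each name (points, larger for a higher mean level) in the 21 families with 3 or more compared names, ordered by the family median, with 1 pooled value per group. Black bars mark the summed family level, and the miR902 bar at -0.11 lies apart from its 12 higher names, while the miR1023 bar at 2.73 lies with miR1023a-3p.

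Summed by family, 9 of 81 families were higher, 11.1%, and 11 were lower, 13.6%. Of these 20 families 13 had a single name at 3 RPM or more. The higher ones beside miR1023, miR477 and miR534 were families with 1 name each. miR1052 stood at 352 RPM in HD and at 1794 RPM in SDH, 5.10-fold higher. miR1050 was at 299 and 1098 RPM, 3.67-fold higher, and miR2080 at 29.2 and 102 RPM, 3.49-fold higher. miR1058, miR1062 and miR1067 passed 2-fold with at most 6.4 RPM in SDH, and were named after their values were seen. In 8 further families at least 1 name passed 2-fold while the sum did not: miR390, miR529, miR902, miR1076, miR1217, miR1222, miR1223 and miR2083.

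In miR1223 and miR902 the most abundant names were not among the higher ones. Of 10 miR1223 names 8 were higher, and each of the 8 lay at or under 56.7 RPM in SDH. miR1223b was at 24.3 and 56.7 RPM, 2.33-fold higher, and miR1223d at 11.4 and 29.7 RPM, 2.61-fold higher. The abundant miR1223a, which held most of the family's reads, was at 407 and 623 RPM, a log2 difference of 0.61. With a pseudocount of 10 RPM none of the 8 passed 2-fold. In miR902, 12 of 23 names were higher and none lower, though some of the 12 stayed under 2-fold with a pseudocount of 10 RPM. With near-identical copies counted once, 6 of 14 miR902 values were higher. The most abundant, miR902c-3p, miR902e-3p and miR902g-3p, stood at 1796.5 RPM each in HD and at 1437 RPM each in SDH. miR902j-5p was the most abundant of those past 2-fold, at 25.1 and 115 RPM, 4.57-fold higher.

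Beside miR408b, the largest differences downward belonged to families outside the conserved list. Some of them, such as miR1077-3p, miR1073-3p and miR1023e-3p, are described below by family or hairpin. miR1043-3p had 859.5 RPM in HD and 18.4 RPM in SDH, 46.7-fold lower. miR1072 was 15.7-fold lower, at 37.6 and 2.4 RPM, and miR1041 was 6.77-fold lower, at 43.3 and 6.4 RPM. Each of these 3 was left with under 20 RPM in SDH. Among the lower names miR1221-5p had the largest difference in RPM, with 17068 and 3138 RPM, 5.44-fold lower. miR1039-3p was at 1347 and 388 RPM, 3.47-fold lower. miR1026a and miR1026b, which target a bHLH transcription factor in this moss, had the same values, 749.8 RPM in HD and 338 RPM in SDH, 2.22-fold lower. At equal totals they would stay under 2-fold.

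All 8 miR1063 names were lower, but they amounted to 2 sets of near-identical copies. One set, with miR1063c, miR1063d, miR1063e and miR1063g, stood at 204 to 205 RPM in HD and 72.3 to 73.5 RPM in SDH. The other, with miR1063a, miR1063b, miR1063f and miR1063h, stood at 226 to 227.5 RPM and 89.9 to 91.2 RPM. At equal totals the second set would stay just under 2-fold, between -0.92 and -0.91 on the log2 scale. Reads that match several copies cannot be told apart, and the sources used here do not say how they were counted.

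The 2 families with names past 2-fold in both directions were miR1023 and miR1222. In miR1023, miR1023a-3p had 3805 RPM in HD and 38776 RPM in SDH, 10.2-fold higher. miR1023e-3p was at 1744 and 155 RPM, 11.2-fold lower, and miR1023c-3p at 41.7 and 2.9 RPM, 14.4-fold lower. miR1023b-3p lay between them with 322 and 401 RPM, a log2 difference of 0.31. miR1023a-3p thus made up nearly all of the family in SDH, where the sum was 39388 RPM, against 3805 of 5929 RPM in HD. In miR1222, miR1222a held most reads, at 2157 and 1505.5 RPM. miR1222d was 2.10-fold lower, at 342 and 163 RPM, and miR1222b was higher, at 1.0 and 5.5 RPM. At equal totals miR1222d would stay under 2-fold, with a log2 difference of -0.66, and with a pseudocount of 10 RPM so would miR1222b.

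The arms of a hairpin were compared where both had a name. Both arms were at 3 RPM or more in 26 of 49 such hairpins. In 4 of the 26 both arms were higher (miR1023a, miR477g, miR902h and miR902l) and in 3 both were lower (miR1073, miR1221 and miR390c). In 12 a single arm passed 2-fold, in 7 neither did, and in none did the arms pass 2-fold in opposite directions. Across the 26 hairpins the log2 differences of the arms had a Spearman correlation of 0.74, given as a description, since the arms share their libraries and 11 of the hairpins are of miR902.

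Some hairpins had a similar ratio of their arms in both states. miR1023a-3p exceeded its 5p arm 951-fold in HD and 955-fold in SDH, with miR1023a-5p at 4.0 and 40.6 RPM. miR390c exceeded its star strand 32.7-fold and 38.2-fold. The 3p arm of miR477g exceeded the 5p arm 2.47-fold and 2.36-fold. In miR900, where both arms had a log2 difference of -0.53, the 5p arm exceeded the 3p arm 49.0-fold in HD and 49.4-fold in SDH. miR1073 kept the direction in both arms, with miR1073-3p at 745 and 55.6 RPM and miR1073-5p at 24.2 and 0.5 RPM.

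**Figure D3:**
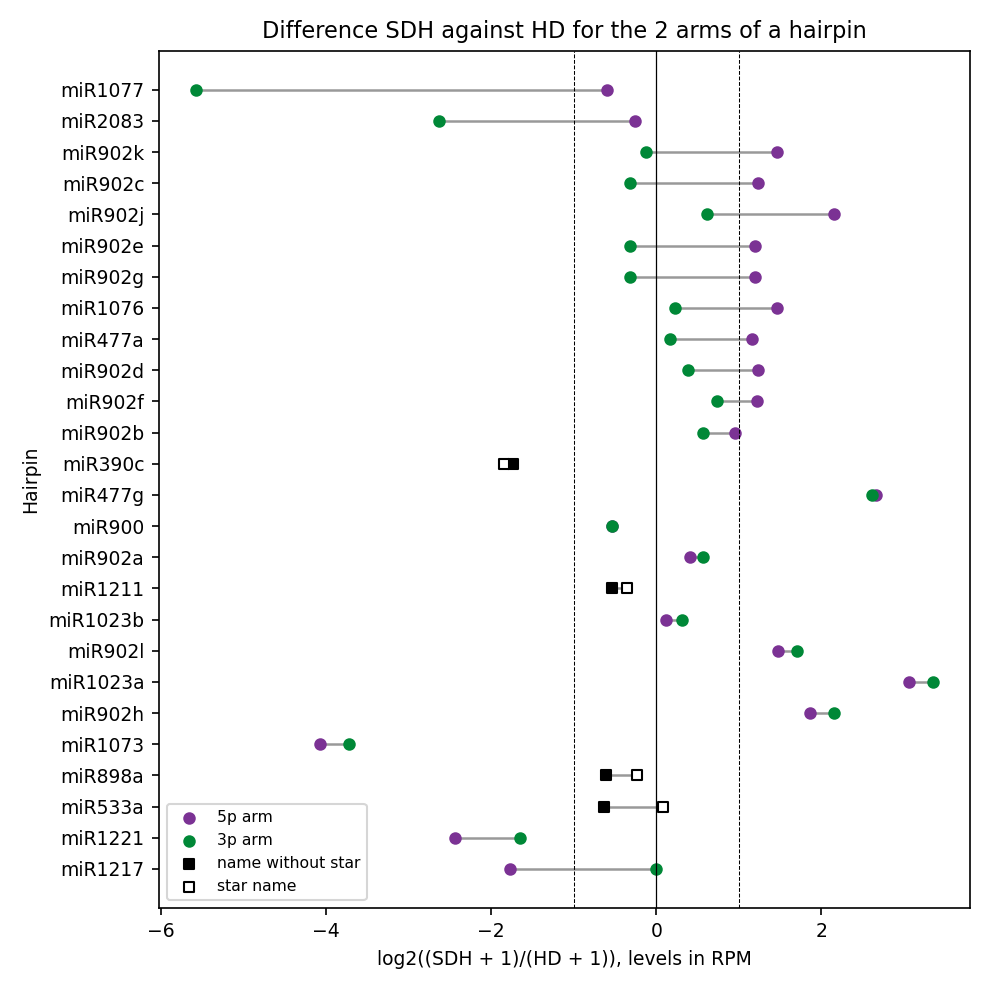
log2((SDH + 1)/(HD + 1)) of both arms of the 26 hairpins whose arms were both at 3 RPM or more, joined by a line per hairpin and ordered by the difference between the arms, with 1 pooled value per group. The arms of miR1077 lie farthest apart, at -0.59 for 5p and -5.57 for 3p, and those of miR900 lie on each other.

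In 9 of the 26 hairpins the arms differed by at least 2-fold in their log2 differences. The widest gap was in miR1077. Its arms were nearly even in HD, with miR1077-5p at 54.7 RPM and miR1077-3p at 51.4 RPM, while in SDH they were at 35.9 and 0.1 RPM. The 5p arm thus held 51.6% of both arms in HD and 99.7% in SDH. In miR2083 the arms were also nearly even in HD, with 30.8 RPM for 5p and 28.0 RPM for 3p. In SDH miR2083-5p was at 25.6 RPM and miR2083-3p at 3.7 RPM, 7.57-fold lower than in HD. miR1217-5p was at 7.2 and 1.4 RPM, while miR1217-3p was at 151 and 150.5 RPM. In miR1076 the scarcer arm was past 2-fold upward, with miR1076-5p at 1.4 and 5.6 RPM and miR1076-3p at 116 and 137 RPM. With a pseudocount of 10 RPM neither miR1217-5p nor miR1076-5p passed 2-fold.

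The other 5 of these 9 hairpins were of miR902, and in all of them the 5p arm was the one past 2-fold. miR902k-5p was at 11.8 and 34.3 RPM, 2.91-fold higher, and miR902k-3p at 55.0 and 50.3 RPM. In miR902j the 5p arm went from 14.5% of both arms in HD to 33.5% in SDH. The 5p names of miR902c, miR902e and miR902g, at 10.2 to 10.5 RPM in HD and 25.2 to 25.4 RPM in SDH, carry near-identical values and are not separate observations. Over the whole family the 5p names summed to 136 and 404 RPM and the 3p names to 6045 and 5324 RPM. The 3p sum counts the near-identical miR902c-3p, miR902e-3p and miR902g-3p separately. With such copies counted once, both arms together summed to 2315 and 2374 RPM, a log2 difference of 0.04 in place of -0.11. Of 12 miR902 5p names 10 were higher, and of 11 miR902 3p names 2 were higher. With a pseudocount of 10 RPM the 5p names of miR902c, miR902d, miR902e, miR902f and miR902g stayed under 2-fold, as did miR902l-3p. Outside miR902, 4 of 14 5p names were higher and 3 lower, against 2 higher and 9 lower of 21 3p names. By label over all families, 14 of 26 5p names and 4 of 32 3p names were higher, 10 of these 14 being of miR902. With near-identical copies counted once, 8 of 20 5p values were higher, 4 of them of miR902.

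The more abundant arm was the same in HD and SDH in 25 of the 26 hairpins. The exception was miR477a, where 3p led in HD with 333 RPM against 243 RPM, and 5p led in SDH with 545 RPM against 375 RPM. Of the 6 star names, miR390c* and miR898a* lay below the name without a star in both states, and the other 4 above it. miR533a* was at 1323 and 1401 RPM and miR533a at 476 and 306 RPM, so that their difference widened from 2.78-fold to 4.58-fold. miR1211* was at 1502 and 1170 RPM, and miR1211 at 125 and 85.4 RPM. miR319d.2* and miR319d.1*, the latter at 382 and 281 RPM, both exceeded miR319d, which was at 83.1 and 62.8 RPM.

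Moderately dehydrated (MDH) gametophores, compared with the same HD value, give what is by title the milder state. Again there is 1 value per group and no test of the difference. For 1 MDH sample the treatment field names another state than the title, and for both SDH samples it names moderate dehydration. The summed level of all names was 503544 RPM in MDH and 629248 RPM in SDH. The factors of median-of-ratios scaling were 0.85 for MDH and 1.11 for SDH. Names under 2-fold between HD and SDH could also stand above MDH, as miR1214 did at 16165 RPM in MDH and 24344 RPM in SDH. The share of all compared names above MDH was not counted, so the counts below cannot be read as particular to the called names. Of the 29 lower names 25 stood above their MDH level in SDH, and 8 of them at least 2-fold above it. The widest of these gaps was that of miR1023e-3p, at 11.8 RPM in MDH and 155 RPM in SDH. miR1221-5p was at 866 RPM in MDH and 3138 RPM in SDH, and miR1026a at 114 RPM in MDH and 338 RPM in SDH. The others were miR1026b, miR1041, miR1043-3p, miR1073-3p and miR1221-3p. Of the 40 higher names 26 stood above their MDH level in SDH, 5 of them at least 2-fold. None of these 69 names lay at least 2-fold below its MDH level. The same SDH value chose the names and enters this comparison, so the counts for higher and for lower names are not set against each other.

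**Figure D4:**
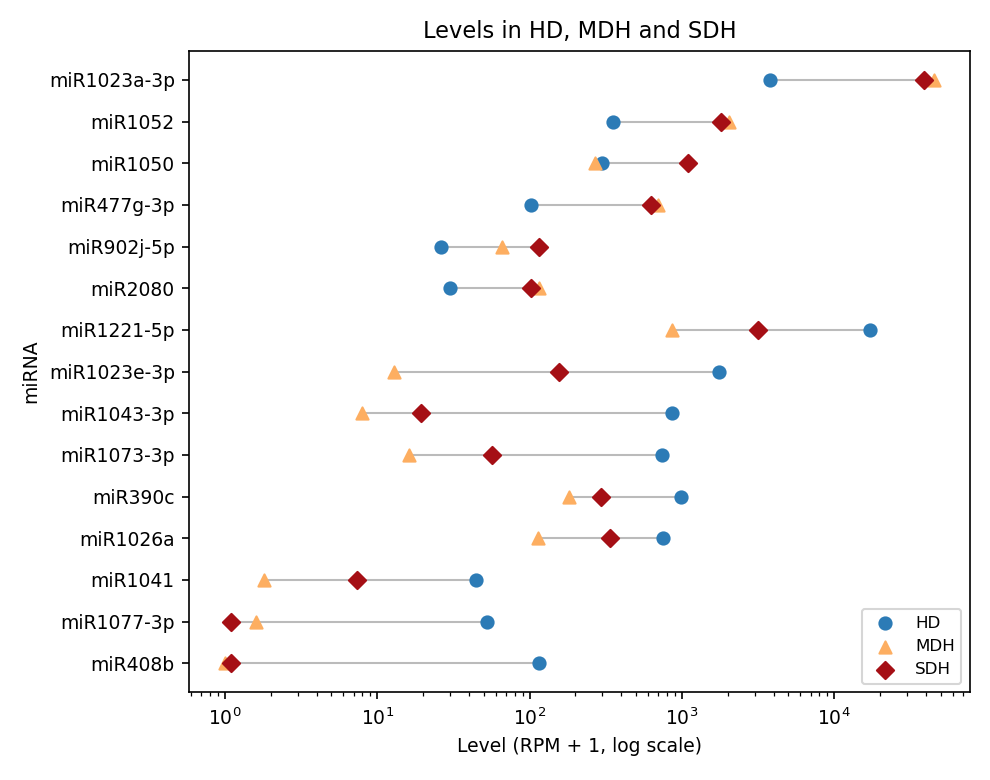
Levels of 15 miRNAs in HD (circles), MDH (triangles) and SDH (diamonds) as RPM + 1 on a log scale, with 1 pooled value per state. miR1050 stands apart in SDH at 1098 RPM with MDH at 268 RPM close to HD, while miR1221-5p, miR1023e-3p and miR1026a lie in SDH between MDH and HD.

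Among the higher names, miR1050 and miR1222b lay below their HD level in MDH. miR1050 was at 268 RPM in MDH against 299 RPM in HD and 1098 RPM in SDH, 4.09-fold above MDH. miR1222b was scarce throughout, at 0.5 RPM in MDH. miR1023a-3p, miR1052 and miR477g-3p lay a little lower in SDH than in MDH, at 45433, 2041 and 697 RPM in MDH.

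The thresholds ran through values that lay close together. Just inside 3 RPM were miR1068, at 1.9 RPM in HD and 3.0 RPM in SDH, and miR1028b-5p, at 3.1 and 2.5 RPM. Just outside were miR1036-3p, at 2.9 RPM in both, and miR1222c, at 1.0 and 2.8 RPM. At the 2-fold line, miR1062 lay on it with 1.1 and 3.2 RPM, and miR1046-5p just under it with 23.3 and 47.1 RPM, a log2 difference of 0.99. On the lower side miR1222d was inside at -1.06 and miR1032 outside at -0.90, with 1575 and 843 RPM.

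The authors' deposited table for SDH against HD lists 232 names and marks 79 of them, 34.1%, of which 47 were higher, 20.3%, and 32 lower, 13.8%. Every mark in the authors' deposited table went with a deposited log2 ratio beyond 1 in size and a deposited p under 0.05. All 69 names past 2-fold here were among the 79 marked, and they made up 87.3% of these. The deposited ratio uses the same pooled values without a pseudocount, so for these names it is larger in size than the measure used here. Their overlap is therefore no independent check. Of the other 10 marked names 5 lay under 3 RPM in both groups, and the other 5 passed 2-fold by the deposited ratio, which has no pseudocount of 1 RPM, but not by the measure used here: miR160c, miR902f-3p, miR1035, miR1046-5p and miR1223j. In the authors' deposited table a total of 189 names out of 232 have p under 0.05, including 110 within 2-fold. The smallest deposited log2 ratio with such a p was 0.06 in size. The table gives 10000000 as the total of both groups, so neither the depth of the libraries nor the spread between replicates can be read from it.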

How the data were processed

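Small RNA of gametophores was sequenced. Per the labels' protocols, 18 to 30 nt RNA was enriched from total RNA, ligated to adaptors, reverse transcribed and amplified by PCR, steps that copy some small RNAs better than others. The sources used here do not name the aligner, the build, the miRNA reference or the way replicates were combined.

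Levels were deposited by the authors as RPM, in steps of 0.1, with 1 value per group. Per the file headers, the authors' comparison table adds a log2 ratio, a p-value whose test is not named, and expressed values, here treated as a score, that are 10 times the RPM. Depth per library is unknown, so no interval or floor was computed. The designs foresaw a linear model only for values per library, so no test was run.

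Groups came from titles, whose replicate numbers are 2 and 3. In 7 of 10 samples the treatment field names another state than the title. With Python 3.11.15, pandas 2.3.3 and NumPy 2.4.6, log2((SDH + 1)/(HD + 1)) was computed and 2-fold calls were counted at 3 RPM or more in the higher group, by name, family sum, arm and hairpin. The procedure was tested on simulated data, with 4-fold differences planted in names at 30 RPM or more in HD. No difference was planted in scarcer names, and copies, scale and replicate spread were not simulated. Near-identical copies were names of 1 family and arm label whose levels differed by at most 5% or 0.5 RPM in each of the 5 states. Among the compared names they form 30 sets with 94 names, and 151 values remain with each set counted once. Named in the text are called names at 10 RPM or more, the most abundant names, arms of hairpins, and members of families of 3 or more names or of the lists by family number: conserved, auxin-related, developmental, copper and nutrient, small RNA machinery and stress-linked. Members and lists were chosen with earlier results of these data known. Alternatives changed the pseudocount, the minimum, the scaling, the counting of copies and the source of the call.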

Additional observations from a re-analysis of the deposited data

How the results depend on the processing

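Counts of called names and families moved with how scarce names were treated. With a pseudocount of 10 RPM 21 names were higher in place of 40, and with a minimum of 30 RPM 20 names and 5 families were higher in place of 40 and 9. In both cases lower names outnumbered higher ones, at 26 and 25. At equal totals 16 families were higher. The 5 hairpins with arms of opposite sign became 8 of 43 with no minimum, 2 of 11 at 30 RPM and 3 of 24 with copies counted once. The other counts stayed within 1.5 times their value: lower names between 21 (equal totals) and 32 (the authors' marks in their deposited table), and lower families between 9 and 12. Under median-of-ratios scaling the median log2 difference of all compared names shifted by -0.04, with 39 higher and 28 lower names. Of 69 called names 40 passed 2-fold in each alternative in which they were compared. No call could change direction, since each alternative reused the same pooled values with at most a small change of scale. A pseudocount of 10 RPM took 22 names, and equal totals 8, under 2-fold. The authors' marks exist for names only, so family sums and hairpins were not recounted from them. No paired analysis was possible because each group has 1 pooled column, and for the same reason no replicate could be left out. With depth unknown, the counting error of names under 10 RPM, which make up 13 of the 69 called names, cannot be given.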

Other observations

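Below 3 RPM in both groups lay 65 names, of which 15 were listed at 0 in both. In 8 names a level above 0 in HD went with a listed 0 in SDH. They were miR1042-3p at 3.1 RPM, miR1043-5p at 1.2 RPM, miR1042-5p at 1.0 RPM, miR1023e-5p at 0.5 RPM, miR1051-5p at 0.3 RPM, miR1222e at 0.2 RPM, and miR534b and miR1053-5p at 0.1 RPM each. Thus both arms of miR1042 were listed at 0 in SDH, as they were in MDH. The reverse, 0 in HD and a level above 0 in SDH, held for 3 names at no more than 0.4 RPM, miR1028a-3p, miR1069-5p and miR1071-3p. Of the 8 names, miR1042-3p alone was at 3 RPM or more in HD.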
